A study of Mus musculus with 8 samples.

Results

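The genes described here encode 9 proteins of the red cell surface, each the carrier of a human blood group antigen. They are Slc4a1, Gypc, Rhag, Rhd, Kel, Ermap, Art4, Slc14a1 and Aqp1. They were listed by name for that role, without use of their levels, and all 9 were found among the 24454 gene rows of the count table. All 9 also passed the filter on low counts that kept 12136 genes for testing. RNA had been measured in 8 pools of cells sorted by flow cytometry from the E11.5 mouse yolk sac, a membrane outside the embryo where blood first forms. The 2 double positive pools, numbered 7 and 8, held 24 cells each that stained for VE-Cadherin, an adhesion protein of endothelium, and carried green fluorescent protein (GFP). The 3 erythroid pools, numbered 4 to 6, held 25 cells each that were GFP positive and VE-Cadherin negative. The 3 endothelial pools, numbered 1 to 3, held 25 cells each that were VE-Cadherin positive and GFP negative. All 8 pools came from C57BL/6 embryos of the genotype miR144/451+/GFP, so every group carried 1 GFP allele at the miR144/451 locus, which encodes a pair of erythroid microRNAs, and no embryo without that allele was among them. The labels do not say whether the pools of a group came from separate embryos or litters, and the p-values therefore cover no more than the spread from pool to pool, which may be technical.

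A red cell carries its blood group antigens on proteins with separate jobs. Band 3 (Slc4a1) exchanges chloride for bicarbonate and ties the membrane to the skeleton beneath it through ankyrin and protein 4.2, and the Rh proteins sit beside it in the same complex. Glycophorin C (Gypc) holds a second attachment site through protein 4.1. The others include a metalloendopeptidase (Kel), an immunoglobulin-type protein of the butyrophilin kind (Ermap), a member of the ADP-ribosyltransferase family (Art4) and channels for urea (Slc14a1) and water (Aqp1). In humans these proteins carry the Diego, Gerbich, RHAG, Rh, Kell, Scianna, Dombrock, Kidd and Colton antigens. Primitive red cells of the yolk sac enter the circulation while still nucleated and complete their maturation there.

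Total counts ran from 3723128 to 7618444 per library. Levels are normalised CPM, counts scaled to a common library size after weighting by factors from the trimmed mean of M values (TMM), and do not give shares of a library. The sort labels were read against marker genes. Summed over 9 erythroid markers, the level was 78821 to 137537 CPM in double positive libraries, 948512 to 1010130 CPM in erythroid libraries and 59.1 to 79.6 CPM in endothelial libraries. Summed over 12 endothelial markers it was 700 to 936, 1.95 to 9.08 and 5160 to 7212 CPM in the same 3 groups, and 10 of the 12 were at 0 in every erythroid library. The double positive libraries also held 87454 and 89325 CPM of 12 visceral endoderm markers, which summed to 10.1 to 22.2 CPM in erythroid and 29.3 to 45.7 CPM in endothelial libraries, with 5 of the 12 at 0 in every library of each. Endothelial replicate 2 stood apart in 14 macrophage markers, with 4164 CPM against 1654 and 1751 CPM in replicates 1 and 3. The macrophage markers summed to 303 and 286 CPM in double positive replicates 7 and 8, and all 14 were at 0 in the erythroid libraries. Endothelial replicate 2 was also highest in 8 megakaryocyte markers, with 998 CPM against 643 and 665 CPM in replicates 1 and 3. Summed over 9 mesenchyme markers, the level was 268 and 247 CPM in double positive libraries and at most 3.30 CPM in the others.

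Most members were high in erythroid libraries, lower in double positive libraries and at or near 0 in endothelial libraries, and Aqp1 ran the other way. In double positive against endothelial libraries, 5 of the 9 members were higher and 3 lower (edgeR quasi-likelihood test, Benjamini-Hochberg adjusted p under 0.05), where 14.6% of all tested genes were called higher and 6.92% lower. The count of lower members was 1 without double positive replicate 7 and 1 without replicate 8. In double positive against erythroid libraries, 1 member was higher and 8 were lower, against 31.5% and 10.6% of all tested genes. In erythroid against endothelial libraries, 8 members were higher and 1 lower, against 14.4% and 26.6% of all tested genes. The median log2 difference of the members was 9.70, -4.27 and 14.07 in these 3 comparisons, beside 0.06, 0.71 and -0.36 over all tested genes. With a floor of 3 counts for each group held at 0, the members' medians were 7.09, -4.27 and 11.48. Slc4a1 and Rhd, with 1 endothelial count each, kept their fitted differences there. Scaling bears on the genome-wide split: with library size alone in place of TMM factors the median of all genes moved by -0.63, 0.90 and -1.54, and the share of higher calls was 37%, 92.4% and 5.47%, against 67.9%, 74.9% and 35.1%. The members kept their directions under library size alone, and the count of higher members in erythroid against endothelial libraries became 7, because Gypc no longer passed.

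The calls sorted the members into 4 patterns. Slc4a1, Rhag, Rhd, Kel and Ermap were intermediate in double positive libraries, above endothelial and below erythroid. Gypc and Slc14a1 were below both other populations there. Art4 was below erythroid libraries and did not pass against endothelial libraries, and Aqp1 was above erythroid and below endothelial libraries. In the plot of the 9 genes by library the first pattern shows in 5 panels as double positive points between those of the other groups.

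**Figure D1:**
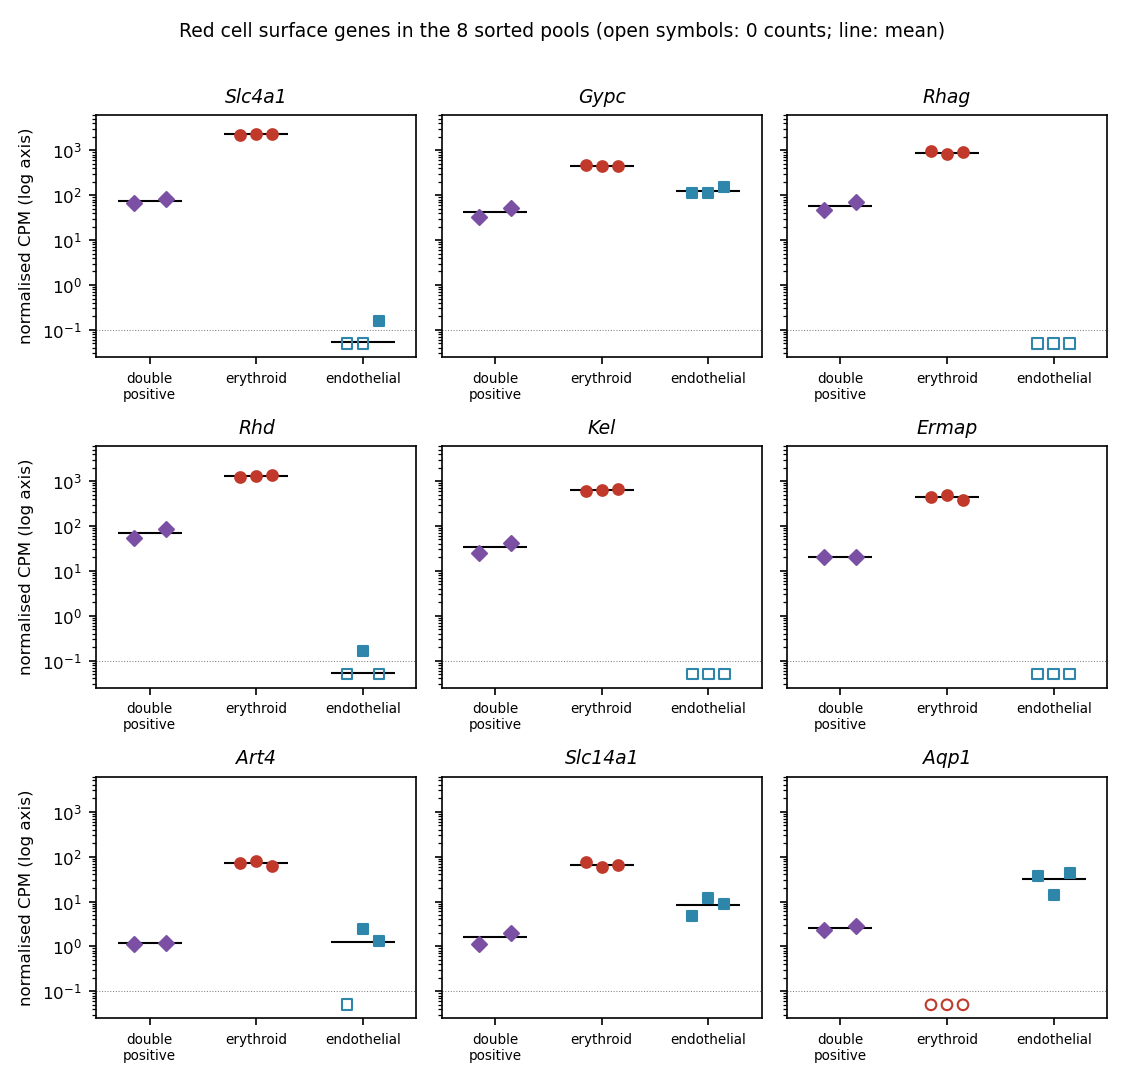
Levels of the 9 red cell surface genes in each library, in normalised CPM on a log axis, with double positive (diamonds), erythroid (circles) and endothelial (squares) libraries side by side, the line marking the group mean and open symbols marking 0 counts. Slc4a1, Rhag, Rhd, Kel and Ermap lie between the other groups in double positive libraries, Gypc and Slc14a1 lie below both, and Aqp1 has 0 counts in all 3 erythroid libraries.

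Upstream sequence was read for the members held in RefSeq's promoter table for GRCm38.p6, which were Rhag, Rhd, Kel, Ermap, Art4 and Aqp1, 6 of the 9. Slc4a1, Gypc and Slc14a1 were not read. The stretches of Rhd, Kel and Ermap are printed as examples of the intermediate pattern, and that of Aqp1 as the member with the opposite order. The 250 bases before each start were searched on both strands for AGATAA and TGATAA, forms of the site bound by GATA factors, and for CCNCNCCC, the core of the site bound by KLF1, an erythroid factor. AGATAA or TGATAA was present for 5 members, Rhag, Rhd, Kel, Ermap and Art4, and in 16.6% of 32851 promoters. The only matches of Rhag and Art4, 31 and 104 bases before the start, lie in bases that an annotation places inside the gene. The share over all promoters was counted without leaving such bases out. CCNCNCCC was present for Aqp1, with 3 matches, and in 45.9% of all promoters, and was not found for the other 5. The printed stretches omit bases that either annotation places inside the gene. Capitals mark the matches, which lie 43 bases before the start of Rhd, 56 before that of Kel and, on the opposite strand, 67 before that of Ermap. Another Kel match, TGATAA 19 bases before the start, runs into the omitted bases and is not capitalised. Those of Aqp1 lie 248, 190 and 37 bases before the start, and the last pair are on the opposite strand. Rhd is at chr4:134864286-134864535 on the plus strand, Kel at chr6:41704340-41704575 on the minus strand, Ermap at chr4:119190014-119190245 on the minus strand and Aqp1 at chr6:55336049-55336298 on the plus strand.
Rhd: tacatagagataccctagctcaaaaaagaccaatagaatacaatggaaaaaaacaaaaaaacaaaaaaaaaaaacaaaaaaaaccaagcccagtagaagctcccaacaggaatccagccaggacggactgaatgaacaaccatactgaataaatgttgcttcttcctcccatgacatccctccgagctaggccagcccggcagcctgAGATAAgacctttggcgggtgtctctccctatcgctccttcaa
Kel: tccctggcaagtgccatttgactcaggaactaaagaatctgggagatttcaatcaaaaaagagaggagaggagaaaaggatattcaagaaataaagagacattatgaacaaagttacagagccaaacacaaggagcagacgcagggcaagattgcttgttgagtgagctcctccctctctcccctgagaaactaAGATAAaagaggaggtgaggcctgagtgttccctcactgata
Ermap: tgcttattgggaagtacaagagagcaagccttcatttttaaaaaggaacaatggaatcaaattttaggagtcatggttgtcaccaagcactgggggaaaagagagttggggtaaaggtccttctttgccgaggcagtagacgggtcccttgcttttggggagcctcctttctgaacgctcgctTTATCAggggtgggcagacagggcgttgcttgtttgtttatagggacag
Aqp1: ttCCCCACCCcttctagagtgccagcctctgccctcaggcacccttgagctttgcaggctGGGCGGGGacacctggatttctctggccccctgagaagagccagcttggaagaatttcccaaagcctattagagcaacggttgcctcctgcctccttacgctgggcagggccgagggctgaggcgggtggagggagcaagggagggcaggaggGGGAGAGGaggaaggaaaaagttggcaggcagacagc
A match describes these letters and is not evidence of binding.

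Slc4a1, the gene of band 3 (GRCm38 chr11:102348824-102366203, minus strand), ranked 22 of the 12136 tested genes by mean CPM in the erythroid libraries. It stood at 68.0 and 84.3 CPM in double positive replicates 7 and 8, at 2160, 2344 and 2289 CPM in erythroid replicates 4 to 6, and at 0, 0 and 0.161 CPM in endothelial replicates 1 to 3. The 3 groups did not overlap, and the endothelial level was a single count in replicate 3. Double positive libraries averaged 76.1 ± 11.53 CPM (SD, n = 2), which was 29.8-fold below the erythroid mean of 2264 ± 94.1 CPM (SD, n = 3), with a log2 difference of -4.89 ± 0.24 (SE) and an edgeR adjusted p of 4.65e-06. In bulk pools such as these, fewer cells of a type and less RNA per cell cannot be told apart. Against endothelial libraries the ratio was 1511, and that single count gave it a 95% interval from 270 to 59752 by counting error (edgeR adjusted p = 1.23e-06). The fitted log2 difference of 9.99 was 11.54 without endothelial replicate 3, the library with the count.

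The pair of Rh genes followed band 3. Rhag (chr17:40811126-40840754, plus strand) encodes the Rh-associated glycoprotein, an ammonia and gas channel subunit that the complex needs to reach the surface. Rhag had 46.2 and 71.6 CPM in double positive libraries, 955, 820 and 900 CPM in erythroid libraries and 0 in all 3 endothelial libraries. Its double positive level was 15.1-fold below the erythroid one (log2 difference -3.92 ± 0.25 SE, edgeR adjusted p = 5.92e-05) and, with 3 counts over the group as the floor, at least 391-fold above the endothelial one (edgeR adjusted p = 2.09e-05). Rhd (chr4:134864536-134896172, plus strand), the only Rh antigen gene of the mouse where humans have RHD and RHCE, had the wider spread between the double positive libraries. It stood at 52.9 and 86.5 CPM in double positive libraries, 1230, 1271 and 1371 CPM in erythroid libraries and 0, 0.163 and 0 CPM in endothelial libraries, the last a single count in replicate 2. No library of one group reached the range of another. In double positive libraries Rhd was 18.5-fold below its erythroid level (log2 difference -4.21 ± 0.29 SE, edgeR adjusted p = 1.82e-05) and 1377 times its endothelial level, where counting error allows 246 to 54482 at 95% (edgeR adjusted p = 5.1e-06). Its fitted log2 difference from endothelial libraries was 9.86, and 11.42 without endothelial replicate 2.

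Kel and Ermap had no count in any endothelial library. Kel (chr6:41686330-41704339, minus strand) encodes the Kell protein, a zinc endopeptidase that is linked to the XK protein in the human membrane. It measured 25.0 and 41.1 CPM in double positive libraries and 600, 644 and 676 CPM in erythroid libraries, a 19.4-fold lower level in double positive libraries (log2 difference -4.27 ± 0.28 SE, edgeR adjusted p = 5.94e-05). Against endothelial libraries it was at least 219-fold higher (edgeR adjusted p = 4.02e-05). Ermap (chr4:119175457-119190011, minus strand), the erythroblast membrane-associated protein, was the most even of the members between the double positive libraries. It had 20.2 and 20.8 CPM there and 441, 477 and 376 CPM in erythroid libraries, 21.0-fold lower in double positive libraries (log2 difference -4.39 ± 0.22 SE, edgeR adjusted p = 1.99e-05) and at least 136-fold higher than in endothelial libraries (edgeR adjusted p = 2.09e-05). In erythroid against endothelial libraries, Rhag, Kel and Ermap were at least 5919-fold, 4248-fold and 2864-fold higher, with edgeR adjusted p-values of 1.52e-06, 2.02e-06 and 9.24e-07. The same ratio was 44875 for Slc4a1 (95% counting interval 8053 to 1772540, edgeR adjusted p = 1.74e-07) and 25564 for Rhd (4587 to 1009780, edgeR adjusted p = 2.56e-07), each resting on the single endothelial count. The AGATAA and TGATAA matches printed above belong to Rhd, Kel and Ermap, 3 of these 5 genes.

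Art4 was a low transcript outside the erythroid pools. It lies at chr6:136848451-136857733 on the minus strand and encodes a surface protein anchored by glycosylphosphatidylinositol. It had 1.15 and 1.22 CPM in double positive libraries, which is 6 counts in each, and 71.0, 80.8 and 61.2 CPM in erythroid libraries. The endothelial libraries had 0, 2.44 and 1.29 CPM, or 0, 15 and 8 counts, a range that takes in both double positive values. In double positive libraries Art4 was 60.0-fold below erythroid libraries (log2 difference -5.88 ± 1.02 SE, edgeR adjusted p = 0.00206) and erythroid libraries were 57.1-fold above endothelial libraries (log2 difference 5.85 ± 0.84 SE, edgeR adjusted p = 0.000611). That second value was 5.22 without endothelial replicate 1 and 6.81 without endothelial replicate 2, and the test passed in both. Double positive and endothelial libraries differed by -0.03 ± 1.002 (SE) on the log2 scale with an edgeR adjusted p of 0.991.

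Gypc was the 1 member with a substantial level in all 3 populations. The gene (chr18:32528322-32560034, minus strand) had 33.0 and 51.1 CPM in double positive libraries, 463, 451 and 440 CPM in erythroid libraries and 111, 111 and 154 CPM in endothelial libraries. The groups did not overlap, and the double positive libraries were the lowest. Their mean of 42.1 ± 12.8 CPM (SD, n = 2) was 9.32% of the erythroid mean, 451 ± 11.8 CPM (SD, n = 3), and 33.5% of the endothelial mean, 126 ± 24.9 CPM (SD, n = 3). The log2 difference was -3.42 ± 0.26 (SE) from erythroid libraries (edgeR adjusted p = 2.78e-05) and -1.58 ± 0.24 (SE) from endothelial libraries (edgeR adjusted p = 0.00223). Erythroid libraries were 3.60-fold above endothelial libraries, a log2 difference of 1.85 ± 0.20 (SE) with an edgeR adjusted p of 0.000143. With library size alone in place of TMM factors that difference was 0.30, and the edgeR adjusted p was 0.169.

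Slc14a1, the urea transporter UT-B, was likewise lowest in the double positive pools, but at few counts. It lies at chr18:78100091-78142119 on the minus strand. It had 1.15 and 2.04 CPM in double positive libraries (6 and 10 counts), 76.6, 58.9 and 64.5 CPM in erythroid libraries and 4.75, 11.9 and 8.71 CPM in endothelial libraries. No groups overlapped. Double positive libraries were 41.9-fold below erythroid libraries (log2 difference -5.37 ± 0.57 SE, edgeR adjusted p = 0.000151), and erythroid libraries were 7.89-fold above endothelial libraries (log2 difference 2.98 ± 0.41 SE, edgeR adjusted p = 0.000478). The 5.31-fold lower level against endothelial libraries (log2 difference -2.39 ± 0.52 SE, edgeR adjusted p = 0.0131) did not pass without double positive replicate 7 (-2.03, adjusted p = 0.125 in edgeR), without replicate 8 (-2.86, adjusted p = 0.0559 in edgeR) or when only these 2 populations were fitted (-2.40, adjusted p = 0.061 in edgeR). Endothelial replicate 2, with the most macrophage and megakaryocyte marker RNA, was the highest of the 3 endothelial libraries in Slc14a1 and in Art4 and the lowest in Aqp1. The part of that RNA in these levels was not tested.

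Aqp1, the water channel aquaporin-1, ran against the other members. The gene (chr6:55336432-55348555, plus strand) had 0 counts in all 3 erythroid libraries at totals of 5291843 to 7618444, although adult red cells are a classic source of the protein. It had 2.29 and 2.85 CPM in double positive libraries (12 and 14 counts) and 37.5, 14.3 and 42.6 CPM in endothelial libraries. The 3 groups did not overlap, with endothelial libraries the highest and most scattered. Erythroid libraries were at least 110-fold below endothelial libraries (edgeR adjusted p = 0.000425), and double positive libraries were at least 9.02-fold above erythroid libraries (edgeR adjusted p = 0.00614). Double positive libraries were 12.2-fold below endothelial libraries (log2 difference -3.60 ± 0.77 SE, edgeR adjusted p = 0.0184). This call did not hold without endothelial replicate 1, endothelial replicate 3, double positive replicate 7 or double positive replicate 8, where edgeR gave adjusted p-values of 0.0595, 0.0603, 0.148 and 0.126 and differences of -3.47, -3.33, -3.45 and -3.77.

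The erythroid members did not all stand at the same fraction of their erythroid level in the double positive pools. As a percent of the erythroid mean, the double positive mean was 9.32% for Gypc, 6.61% for Rhag, 5.40% for Rhd, 5.17% for Kel, 4.75% for Ermap, 3.36% for Slc4a1, 2.39% for Slc14a1 and 1.67% for Art4. The same percent was 11.8% for the embryonic beta-type globin Hbb-y, 10.2% for the alpha-type globin Hba-x, 4.88% for the transcription factor Gata1, 4.82% for the heme synthesis enzyme Alas2 and 3.77% for Klf1. Among the other erythroid markers it was 9.85% for Hbb-bh1, 6.24% for Hemgn and 4.68% for Epor. Tfrc, at 26.9%, stood above every member. The members thus lay on both sides of the erythroid regulators, and Gypc was the nearest of them to the globins. Gypc also averaged 126 CPM in endothelial libraries, and the part of endothelial RNA in its percent was not tested. Between the pools, replicate 8 was above replicate 7 by 1.64 times in Rhd and Kel, 1.55 times in Rhag and Gypc, 1.24 times in Slc4a1 and 1.03 times in Ermap, beside 1.66 times in Hbb-bh1 and 1.73 times in Alas2. Hba-x and Hbb-y rose by 1.79 and 1.75 times, and Hemgn from 115 to 195 CPM. Gata1 had 13.2 and 14.9 CPM in replicates 7 and 8, Klf1 25.6 and 32.0, Epor 10.1 and 10.4 and Tfrc 99.7 and 128. These last markers rose less than the globins and Alas2. The erythroid marker sum, which was mostly globin, was likewise higher in replicate 8, 137537 against 78821 CPM in replicate 7.

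**Figure D2:**
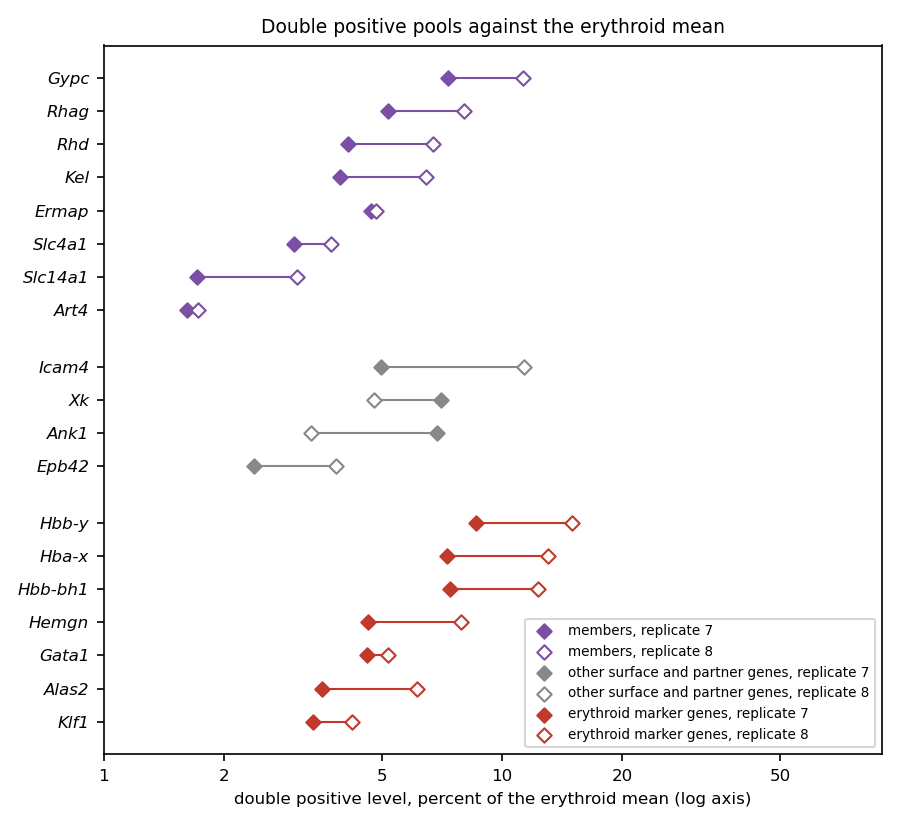
Level of each gene in double positive replicates 7 (filled) and 8 (open) as a percent of the erythroid mean, on a log axis. Drawn are 8 members, the surface and partner genes Icam4, Xk, Epb42 and Ank1, and erythroid marker genes. The members run from 1.67% for Art4 to 9.32% for Gypc on average, and the globins lie between 9.85% and 11.8%. The erythroid markers Tfrc and Epor are not drawn. Nor are the other surface and partner genes, which were not all within the members' range (26.5% for Smim1, 8.16% for Slc29a1).

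Ratios within a library remove the scaling between libraries. The log2 ratio of Gypc to Slc4a1 was -0.88 ± 0.22 in double positive libraries (SD, n = 2) and -2.33 ± 0.09 in erythroid libraries (SD, n = 3), a difference of 1.45. Rhag, Rhd, Kel and Ermap were also higher relative to Slc4a1 in double positive libraries, with differences of 0.95, 0.65, 0.59 and 0.52, and Art4 was lower, with -0.89. The groups did not overlap for these 6 ratios. Each had a two-sided exact permutation p of 0.1, the smallest that 2 against 3 libraries allow, so no ratio could pass at 0.05. Adjusted over the 8 ratios computed the value was 0.114. The Slc14a1 ratio differed by -0.45 with an exact permutation p of 0.3, and by 0.14 when 5 rather than 0.5 was added to each count. Set against Alas2 in place of Slc4a1, the differences were 0.97 for Gypc, 0.48 for Rhag, 0.18 for Rhd, 0.12 for Kel, 0.05 for Ermap and -1.36 for Art4. Adding 5 to each count gave -0.17 for Art4 relative to Slc4a1.

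Levels were compared between members per kilobase of the longest coding transcript. On that scale the erythroid order was Rhd, at 852 ± 47.8 CPM per kb (SD, n = 3), then Slc4a1 at 498 ± 20.7, Rhag at 381 ± 29.1, Kel at 253 ± 15.2, Gypc at 207 ± 5.40, Ermap at 94.8 ± 11.2, Art4 at 28.2 ± 3.89 and Slc14a1 at 18.2 ± 2.46 CPM per kb. Neighbours in that order did not overlap over the 3 erythroid libraries, so the Rh antigen gene led band 3 once length was counted. In double positive libraries Rhd was again first, at 46.0 ± 15.7 CPM per kb (SD, n = 2), and Rhag at 25.2, Gypc at 19.3, Slc4a1 at 16.7 and Kel at 13.1 CPM per kb followed, each overlapping the next. Endothelial libraries had Gypc at 57.6 ± 11.4, Aqp1 at 12.0 ± 5.74 and Slc14a1 at 2.31 ± 0.974 CPM per kb (SD, n = 3). The other 6 were each at 0.494 CPM per kb or less there, with Art4 the highest of them.

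The genes with the most similar profiles over the 8 libraries differed by pattern. Patterns and profiles were read from the same libraries, so this describes the levels and tests nothing. Likeness was the Euclidean distance between log2(CPM + 1) profiles, each centred on its own mean, among all tested genes. The nearest to Rhag was Rhd, at 0.64, and the nearest to Slc4a1 was also Rhd, at 1.12, followed by Hemgn at 1.25 and Alas2 at 1.60. Kel was nearest to Cited4 at 0.43 and Klf1 at 0.55, and Ermap to the amino acid transporter gene Slc38a5 at 0.41 and Gata1 at 0.87. Gypc was nearest to Lmo2 at 0.68 and Lyl1 at 0.77, both transcription regulators of blood and endothelium, and to Ptp4a3 at 0.77. Aqp1 was nearest to Gbp4 at 0.70, Col13a1 at 0.75 and Chst2 at 0.85. The nearest to Art4 and Slc14a1 were farther away, Fam109b at 1.28 and Slc48a1 at 1.49. Both members had only 6 to 10 counts in each double positive library.

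Other proteins that carry blood group antigens were read as a list of 24 genes, of which 22 were tested. In double positive against endothelial libraries 9 were higher and 6 lower, in double positive against erythroid libraries 6 were higher and 10 lower, and in erythroid against endothelial libraries 11 were higher and 6 lower. Over all tested genes the shares were 14.6% and 6.92%, 31.5% and 10.6%, and 14.4% and 26.6%, so the 6 higher against erythroid libraries and the 6 lower in erythroid against endothelial libraries were near the background. With library size alone these counts were 7 and 6, 9 and 7, and 7 and 10. Without double positive replicate 7 the first pair was 7 and 4 and the second 5 and 6, and without replicate 8 they were 7 and 4 and 6 and 6. The list's median log2 differences were 0.55, -0.55 and 0.95, and its genes thus ran in both directions.

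Several of its genes shared the pattern of Slc4a1, Rhd and Kel. Smim1, which carries the Vel antigen in humans, averaged 102 ± 20.8 CPM in double positive, 385 ± 8.10 CPM in erythroid and 7.48 ± 0.198 CPM in endothelial libraries, 3.78-fold lower than in erythroid and 13.6-fold higher than in endothelial libraries (edgeR adjusted p = 7.15e-05 and 5.1e-06). Icam4 averaged 23.5 ± 13.05 CPM in double positive and 288 ± 88.1 CPM in erythroid libraries and was at 0 in endothelial libraries. Xk, which encodes the partner of Kell, averaged 13.1 ± 3.59 CPM in double positive and 223 ± 14.3 CPM in erythroid libraries. Its 18 endothelial counts all lay in replicate 2, whereas Kel was at 0 there. The Xk difference between double positive and endothelial libraries (log2 difference 3.79, edgeR adjusted p = 0.0194) did not pass with library size alone, with DESeq2, with only these 2 populations fitted or without either double positive replicate, and the highest adjusted p over its alternatives was 0.131. The Xk difference from erythroid libraries (-4.08, edgeR adjusted p = 0.00492) did not pass with DESeq2 or without double positive replicate 8.

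Other genes of the list had the order of Aqp1. Cd36, a fatty acid and thrombospondin receptor, averaged 52.9 ± 8.39 CPM in double positive libraries and 322 ± 24.7 CPM in endothelial libraries and was at 0 in erythroid libraries. Cd44, the hyaluronan receptor, averaged 10.4 ± 5.21 CPM in double positive, 0.109 CPM in erythroid and 84.8 ± 18.7 CPM in endothelial libraries. In double positive libraries both were below endothelial libraries (edgeR adjusted p = 0.000358 and 0.00385) and above erythroid libraries (edgeR adjusted p = 1.05e-05 and 0.000339). Slc29a1, a nucleoside transporter, shared the order of Gypc, with 18.1 ± 0.294 CPM in double positive, 222 ± 36.9 CPM in erythroid and 82.9 ± 6.15 CPM in endothelial libraries (edgeR adjusted p = 1.1e-05 against erythroid and 0.000208 against endothelial). Erythroid libraries were above endothelial ones in Slc29a1 by 1.42 on the log2 scale (edgeR adjusted p = 0.000251), but with library size alone this was -0.12 and did not pass (edgeR adjusted p = 0.561). Abcg2, an exporter of porphyrins and urate, averaged 568 ± 1.72 CPM in double positive, 385 ± 28.0 CPM in erythroid and 101 ± 30.2 CPM in endothelial libraries, passing against endothelial libraries (edgeR adjusted p = 0.000193) and not against erythroid libraries (edgeR adjusted p = 0.0827). With library size alone Abcg2 did pass against erythroid libraries, at a log2 difference of 1.47 in place of 0.56. It also passed there with DESeq2, with only the 2 populations fitted and without endothelial replicate 2. The part of visceral endoderm RNA in the double positive level of Abcg2 was not tested.

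**Figure D3:**
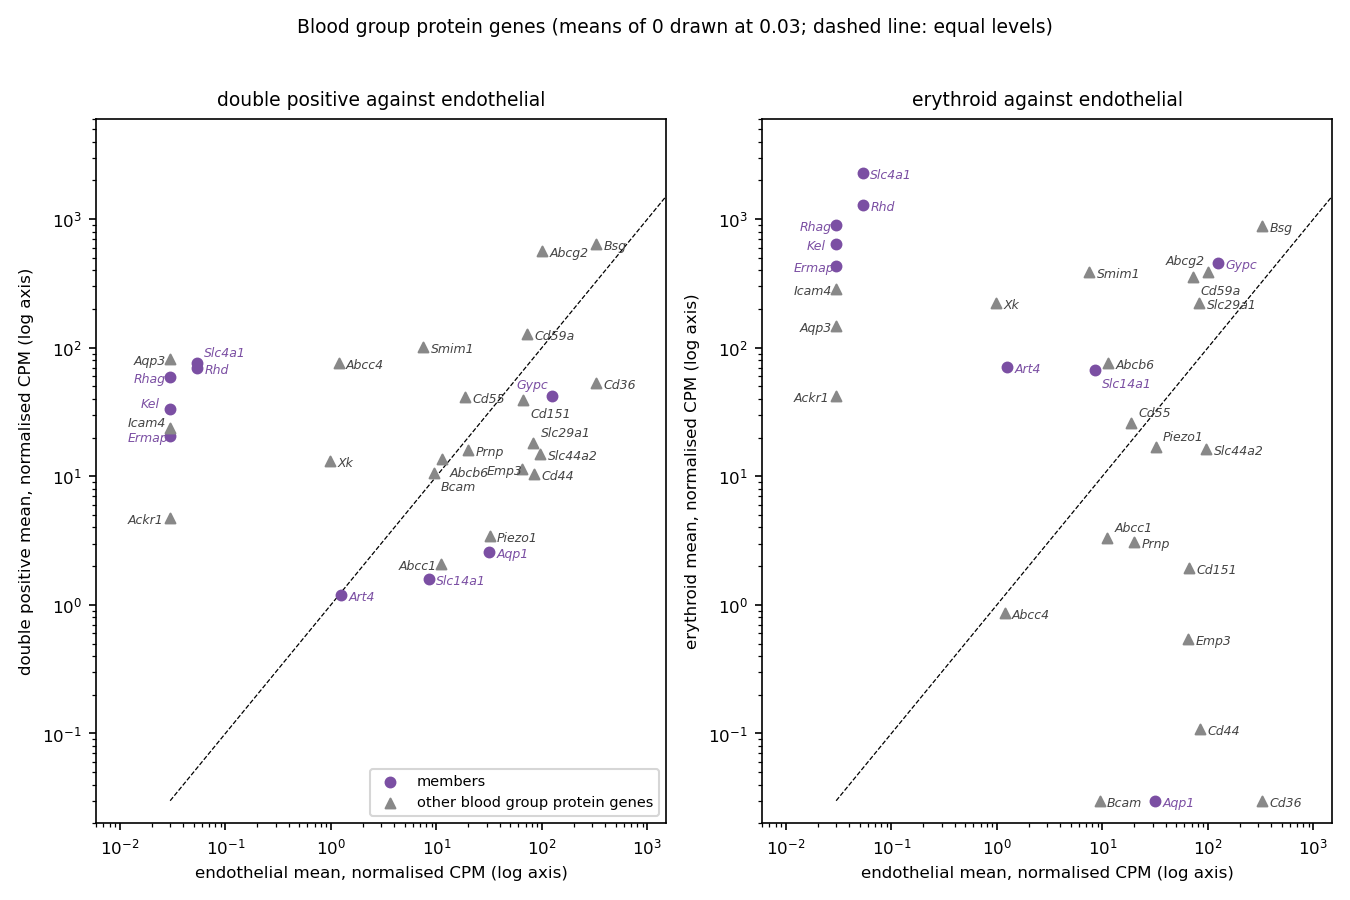
Mean levels of the 9 members (circles) and other blood group protein genes (triangles), in normalised CPM on log axes, with the double positive mean (left) or the erythroid mean (right) on the vertical axis and the endothelial mean on the horizontal axis. Means of 0 are drawn at 0.03, and the 5 members at the left edge of both panels are Slc4a1, Rhd, Rhag, Kel and Ermap.

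Of 8 listed genes for enzymes that build carbohydrate blood group antigens, 4 passed the filter on low counts, and Abo and Fut1, which make the ABO and H antigens, had 0 counts in every library. B3galnt1, the globoside synthase, averaged 62.9 ± 14.7 CPM in double positive libraries and 29.5 ± 16.1 CPM in endothelial libraries and was at 0 in erythroid libraries, at least 221-fold higher in double positive than in erythroid libraries (edgeR adjusted p = 0.000235). Gcnt2, which makes the I antigen, averaged 20.7 ± 1.01 CPM in double positive libraries, 0 in erythroid and 2.75 ± 3.11 CPM in endothelial libraries, with an edgeR adjusted p of 0.0147 against erythroid libraries that did not pass without double positive replicate 7. B4galnt2 averaged 12.8 ± 0.256, 0.528 and 0 CPM, and Gbgt1 0.204, 0 and 1.58 CPM, in double positive, erythroid and endothelial libraries. The double positive libraries also held 87454 and 89325 CPM of visceral endoderm markers. The part of that RNA in the levels of B3galnt1, Gcnt2 and B4galnt2 was not tested. In double positive against erythroid libraries 2 of the 4 were higher and none lower, and in erythroid against endothelial libraries none was higher and 2 lower, B3galnt1 and Gbgt1, where 31.5% of all tested genes were higher in the first comparison and 26.6% lower in the second. With library size alone these counts were 3 higher and 3 lower. The Gbgt1 call (edgeR adjusted p = 0.0404) was absent with DESeq2, with no filter on low counts and without any of endothelial replicate 1, erythroid replicates 4 to 6 or either double positive replicate. The B4galnt2 call, the only one of the 4 in double positive against endothelial libraries (edgeR adjusted p = 0.024), was absent without endothelial replicate 1 or either double positive replicate.

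Most partners of band 3 and the Rh complex were, like the first group of members, lowest in endothelial and highest in erythroid libraries. Of 12 tested genes, 6 rose and 2 fell in double positive against endothelial libraries, 1 rose and 10 fell against erythroid libraries, and 9 were higher and 1 lower in erythroid against endothelial libraries. The shares over all tested genes were 14.6% higher and 6.92% lower, 31.5% and 10.6%, and 14.4% and 26.6%. With library size alone, the 1 lower gene in erythroid against endothelial libraries became 3 and the 10 falls against erythroid libraries became 8. The 6 rises against endothelial libraries were 5 with library size alone, DESeq2 or only these 2 populations fitted. These rises were also 5 without endothelial replicate 3 or any 1 of erythroid replicates 4 to 6. The 2 falls against endothelial libraries were 1 without endothelial replicate 1 or 3 or either double positive replicate, and the single rise against erythroid libraries was 2 without double positive replicate 8 and with library size alone. Epb42, protein 4.2, averaged 17.7 ± 5.82 CPM in double positive, 569 ± 30.7 CPM in erythroid and 0.054 CPM in endothelial libraries, so that double positive libraries were 32.2-fold below erythroid ones (edgeR adjusted p = 1.11e-05), beside 29.8-fold for Slc4a1. Sptb, beta spectrin, averaged 11.54 ± 0.662 CPM in double positive and 271 ± 26.7 CPM in erythroid libraries and was at 0 in endothelial libraries. Ank1, ankyrin-1, averaged 4.38 ± 2.17, 86.0 ± 9.91 and 0.054 CPM in double positive, erythroid and endothelial libraries. Car2, the carbonic anhydrase that feeds bicarbonate to band 3, averaged 694 ± 194 CPM, 10036 ± 962 CPM and 95.003 ± 5.83 CPM in the same order (edgeR adjusted p = 6.89e-06 against erythroid and 2.11e-05 against endothelial). Not all partners had this order. Mpp1 was lowest in erythroid libraries, with 126, 16.1 and 151 CPM in double positive, erythroid and endothelial libraries. Stom was lowest in double positive libraries, with 15.1, 162 and 33.6 CPM. Slc2a1, with 268, 160 and 150 CPM, passed in no comparison. Cd47, a signal protein of the human Rh complex, averaged 91.0 ± 9.69 CPM in double positive, 179 ± 44.1 CPM in erythroid and 175 ± 31.3 CPM in endothelial libraries. Erythroid and endothelial libraries overlapped in Cd47, and the lower double positive level (edgeR adjusted p = 0.0143 against erythroid, 0.0301 against endothelial) was -0.07 on the log2 scale against erythroid libraries with library size alone. It passed against neither population without double positive replicate 7 or without replicate 8, and not against endothelial libraries without endothelial replicate 1 or 3.

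Paralogs of the members were mostly low. Of 18 listed genes 8 were tested, with 3 higher and 1 lower in double positive against endothelial libraries, 3 higher and 2 lower in double positive against erythroid libraries, and 2 higher and 3 lower in erythroid against endothelial libraries. Over all tested genes 14.6% and 6.92%, 31.5% and 10.6%, and 14.4% and 26.6% were called, so the 3 higher against erythroid libraries and the 3 lower in erythroid against endothelial libraries were near the background. With library size alone the second pair became 5 and 0 and the third 2 and 4. Left-out libraries changed these counts, to 2 and 0 in the first comparison and 2 and 1 in the second without double positive replicate 7, to 2 and 0 in both without replicate 8, to 2 and 0 in the second without erythroid replicate 5, where the lower count was also 1 without erythroid replicate 4 or 6, and to 2 and 1 in the third without endothelial replicate 2, endothelial replicate 3 or either double positive replicate. Aquaporins were the clearest contrast to Aqp1. Aqp3, a channel for glycerol and water that carries the GIL antigen in humans, had 95.1 and 68.4 CPM in double positive libraries, 120, 166 and 156 CPM in erythroid libraries and 0 in endothelial libraries. Aqp8 had 53.6 and 24.6 CPM in double positive libraries, 123, 131 and 73.6 CPM in erythroid libraries and 0 in endothelial libraries. Both were thus present where Aqp1 had no count, and erythroid libraries were at least 976-fold and 724-fold above endothelial libraries (edgeR adjusted p = 5.26e-06 and 4.3e-05). Double positive libraries were at least 543-fold and 260-fold above endothelial libraries (edgeR adjusted p = 3.03e-05 and 0.000302). Against erythroid libraries the double positive levels were lower in the TMM fit, with log2 differences of -0.85 for Aqp3 and -1.48 for Aqp8 (edgeR adjusted p = 0.0416 and 0.0347), but with library size alone these were 0.07 and -0.54 and neither passed. The Aqp3 call was also absent with relative log expression factors and without erythroid replicate 5 or 6 or either double positive replicate, and that of Aqp8 without erythroid replicate 4 or 5 or double positive replicate 8, with adjusted p-values of up to 0.871 and 0.397 in edgeR over all alternatives.

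**Figure D4:**
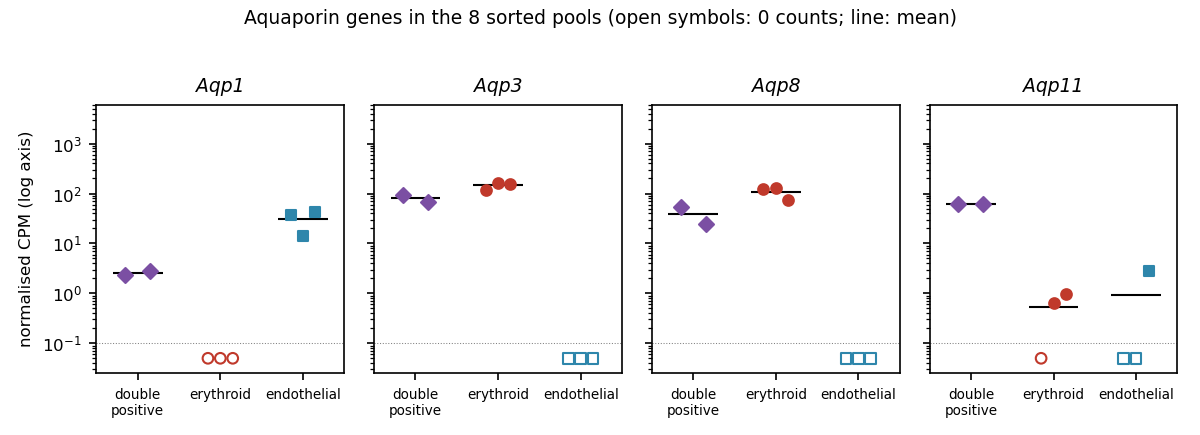
Levels of 4 aquaporin genes in each library, in normalised CPM on a log axis, with the line marking the group mean and open symbols marking 0 counts. Aqp1 is highest in endothelial libraries and at 0 in erythroid libraries, Aqp3 and Aqp8 are at 0 in endothelial libraries, and Aqp11 is near 61.8 CPM in both double positive libraries.

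Aqp11 had 61.9 and 61.7 CPM in double positive libraries, against 0, 0.634 and 0.977 CPM in erythroid libraries and 0, 0 and 2.74 CPM in endothelial libraries. It was 115-fold above erythroid libraries (edgeR adjusted p = 0.00725) and 67.5-fold above endothelial libraries (edgeR adjusted p = 0.0164), and the second call did not hold without either double positive replicate. The visceral endoderm markers, at 87454 and 89325 CPM in the double positive libraries, had the same order as Aqp11, and their part in the levels of Aqp3, Aqp8 and Aqp11 was not tested. Ece1, a relative of Kel that processes endothelins, had the opposite order to Kel. It averaged 30.4 ± 5.31 CPM in double positive, 0.845 CPM in erythroid and 251 ± 6.68 CPM in endothelial libraries, and all 8 of its erythroid counts lay in replicate 5. The double positive level was 8.24-fold below the endothelial one (edgeR adjusted p = 0.00669), a call that did not hold without either double positive replicate. Art3, a relative of Art4, averaged 0.891, 0 and 2.19 CPM in double positive, erythroid and endothelial libraries, so the erythroid level of Art4 had no counterpart in it.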

How the data were processed

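Polyadenylated RNA of each pool was copied and amplified by Smart-seq2 with 14 cycles of PCR, per the labels' protocols, and reads carried no molecular identifiers. What the authors deposited is 1 table of raw counts by gene symbol, not normalised. The submitters' processing notes name FastQC, HTSeq and the build mm10. Aligner, annotation, versions and strandedness: not given in the sources used here. No exon of another gene in the GENCODE annotation of GRCm38 overlapped a member.

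Counts were analysed with edgeR 4.0.16 in R 4.3.3. Genes were kept by filterByExpr at a minimum count of 10, library sizes were scaled by TMM, and all 8 libraries entered 1 robust quasi-likelihood fit with a mean for each population, with a common biological coefficient of variation of 0.5413. Adjustment ran over all 12136 tested genes, two-sided. The fit was tested on simulated data. A group with 0 counts was given a floor of 3 counts over the group, and groups of 1 to 3 counts a 95% counting interval; both cover counting error only. Promoters and their coordinates are from RefSeq, gene positions from GENCODE. All 9 members were named, with up to 4 genes of each companion list by adjusted p in each comparison, some fixed partners, and the nearest genes by profile; some genes this rule names are not reported here. The members, the lists and the rule were chosen with earlier results of these data known. Alternatives were size factors by relative log expression (RLE), unscaled library sizes, globins left out of library sizes, other count filters, DESeq2 1.42.0, only the populations compared, and each library left out.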

Additional observations from a re-analysis of the deposited data

How the results depend on the processing

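Of 27 member comparisons, 23 kept their direction and their side of the threshold in every alternative run, and of 404 alternative values 8 lost their call and 3 changed sign. The sign changes were all Art4 in double positive against endothelial libraries, a difference that never passed: 0.93 without endothelial replicate 2, 0.01 without endothelial replicate 3 and 0.02 without double positive replicate 7, within a range of -0.66 to 0.93 over the left-out libraries. The lost calls were those of Slc14a1 and Aqp1 in double positive against endothelial libraries and of Gypc in erythroid against endothelial libraries (0.30 with library size alone). Members called lower in double positive against endothelial libraries numbered 1 to 3 when 1 library was left out, and the ratio of Slc14a1 to Slc4a1 turned to 0.14 with 5 added to each count. Over all genes, 1777 were called higher and 840 lower in double positive against endothelial libraries, 3820 and 1283 in double positive against erythroid libraries and 1745 and 3231 in erythroid against endothelial libraries. With library size alone these were 1118 and 1901, 5754 and 474, and 420 and 7265. In the first comparison the lower count was 1415 with DESeq2 and 1422 with only the 2 populations compared. Leaving out 1 library gave 696 to 1854 higher and 219 to 1039 lower in the first, 2315 to 3845 and 609 to 1348 in the second, and 1466 to 1612 and 2707 to 3158 in the third, where fewer samples were fitted. The cause of the other shifts was not tested. Art4 was not tested in its first comparison when only the 2 populations compared were fitted. No paired analysis was possible because the populations share no replicate number. The double positive levels of Art4, Slc14a1 and Aqp1 rest on 6 to 14 counts per library.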
